A study of Mus musculus with 12 samples.

Results

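The ephrin, Slit-Robo and netrin guidance genes were followed as 1 set of 39 genes among the 57010 of the gene table. Membership follows gene family and uses no measured value, although the families were picked with earlier results of these data known. It held the 14 Eph receptors and 8 ephrins of the table, the 3 Slit ligands, the 4 Robo receptors, 4 netrins, and the 6 netrin receptors of the DCC and UNC5 families. RNA was sequenced from NE-4C cells, a line of neural progenitors taken from embryonic mouse brain that lacks p53, and so all groups shared that deletion. WT cells and 1 Faf2 KO line, in which CRISPR/Cas9 had removed exon 4, were collected untreated (WT NO and KO NO) or 3 days after induction with 1 µM all-trans retinoic acid, given for 24 h (WT RA and KO RA). Each of the 4 groups had 3 libraries from independent passages. Because the KO was a single line, a difference between KO and WT cannot be told apart from a difference between lines. No untreated group kept for the same 3 days is named. A change between NO and RA groups therefore cannot be told apart from one with time in culture.

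These families steer cells and axons by contact or by secreted cues. Eph receptors are tyrosine kinases that bind membrane-bound ephrins on neighboring cells, A-class receptors mostly binding ephrin-A and B-class receptors mostly binding ephrin-B, and the ephrin-bearing cell can also receive a signal. Slits are secreted proteins that repel cells and axons through Robo receptors. Netrins attract through DCC and repel when UNC5 receptors take part. In the early neural tube all 3 systems set tissue boundaries and guide commissural axons and migrating neurons.

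Totals ran from 17370069 to 30738717 estimated counts a library, and levels are given as counts per 1000000 after TMM scaling (CPM), which set genes side by side on the reading that the deposited counts had been corrected for transcript length, as the table's name and values point to but no source states. The level of the targeted gene, Faf2, was 50, 38.8 and 35.9 CPM untreated and 35.1, 37.8 and 49 with RA in WT cells, and 21, 21.7 and 25.4 and 36.1, 34.3 and 18.7 in KO cells. RA stands for retinoic acid, and values of 3 libraries are in the order of replicates 1, 2 and 3. Untreated KO libraries lay below all WT libraries, whereas KO RA replicate 1 lay within the WT range and replicate 2 just under it, and the gene count does not separate transcripts that lack exon 4. KO RA replicate 3 stood apart. Its scaling factor was 0.394 against 0.872 to 1.28 in the other 11 libraries, its 100 most abundant genes took 62.5% of counts against 37.1 to 50.4%, and 31 of the 36 tested guidance genes were lowest there among the KO RA libraries, against 50.8% of all tested genes. Each count is therefore also given without it. Each of the 11 neural progenitor markers had more than 3 counts in at least 1 library of the series. They summed to 537 to 588 CPM in WT NO, led by Vim at a mean of 204 CPM, and Sox1, Fabp7 and Hes5 did not exceed 0.813 CPM there. Pluripotency markers summed to 1930 to 3270 CPM in the same libraries, led by Pou5f1 at a mean of 1850 CPM.

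All 39 genes were listed, and 36 passed the filter on low counts and were tested. Epha6, Epha10 and Ntn5 did not. The median guidance gene had a mean level of 2.29 CPM untreated and 3.89 with RA in WT cells, and of 1.71 and 3.76 in KO cells. Efnb1, a transmembrane ephrin, had the highest mean in each group, and in WT RA and KO NO it was above the next gene in every library. Some genes had no more than 3 counts in any library of a group, which is called the floor here. Epha6, Ntn5 and Dcc were at the floor in WT NO, Epha10, Robo4 and Ntn5 in WT RA, Robo3, Ntn4, Ntn5 and Dcc in KO NO, and Ntn5 alone in KO RA.

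**Figure D1:**
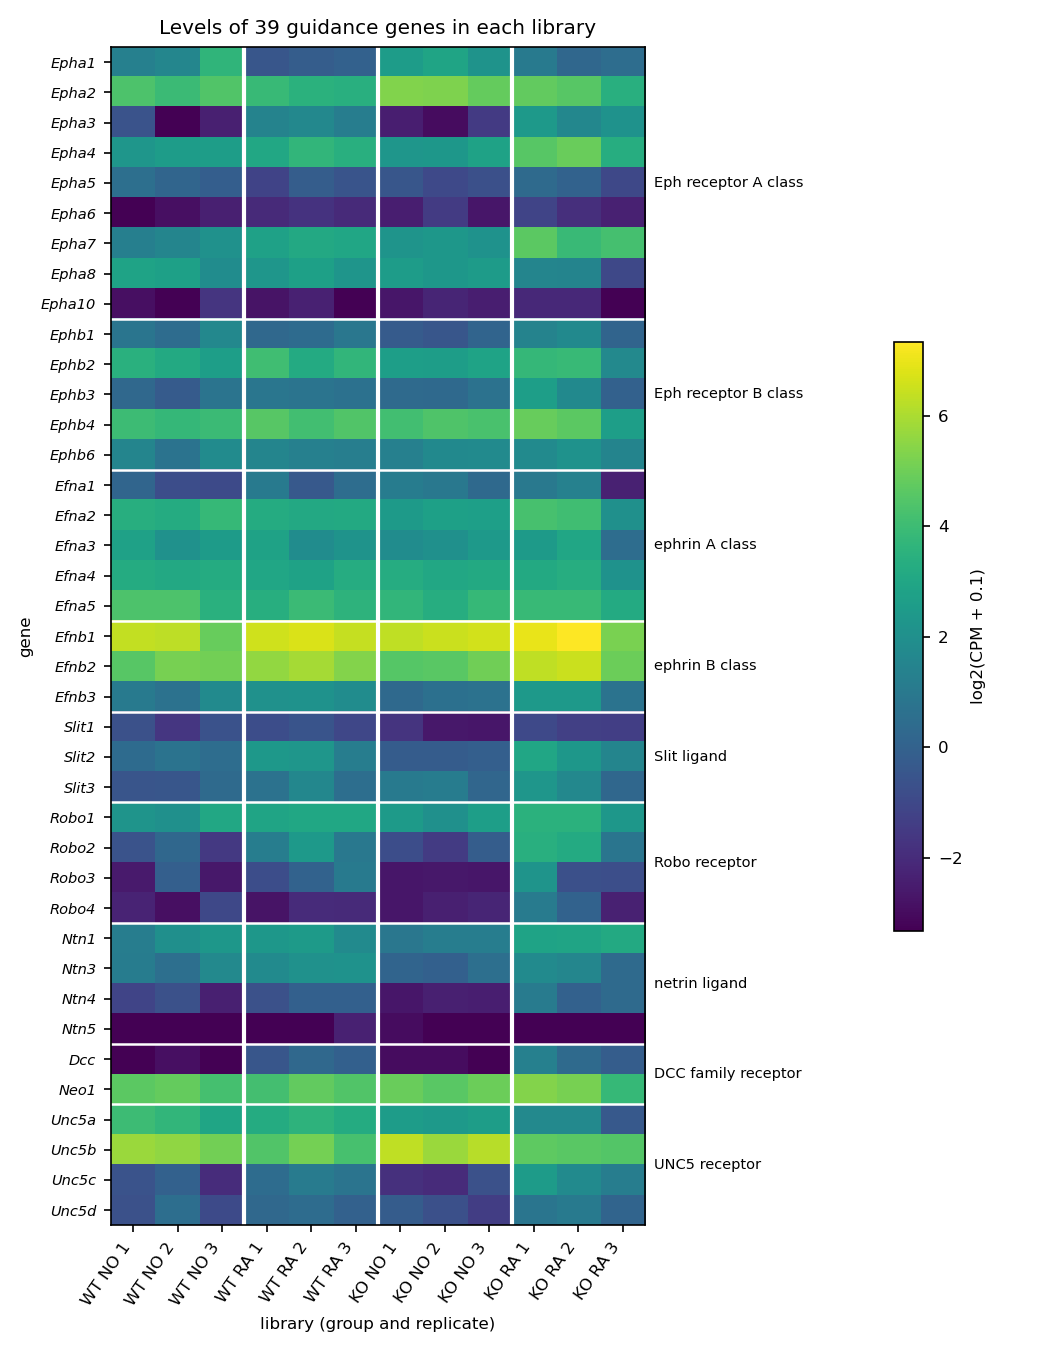
Color shows log2(CPM + 0.1) of the 39 guidance genes (rows, by role) in the 12 libraries (columns, by group and replicate). Efnb1 and Unc5b were among the highest rows, Ntn5 was near 0 throughout, and Dcc, Epha3, Ntn4 and Unc5c were brighter in the KO RA columns than in the KO NO columns.

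The first question was which guidance genes changed from the NO to the RA groups. In KO cells 9 rose and 1 fell (edgeR, adjusted p under 0.05). Those that rose were the receptors Epha3, Epha4, Epha7, Robo2, Dcc and Unc5c and the secreted ligands Slit2, Ntn1 and Ntn4, and Unc5b fell. The 9 are 25.0% of the guidance genes tested, where 3.89% of all 16502 genes tested rose and 1.59% fell. The median log2 fold change was 1.15 over the 36 guidance genes and 0.11 over all genes, and 29 of the 36 were positive. In every KO RA library 14 guidance genes were higher, and 5 lower, than in every KO NO library, beside 13.2% and 16.9% of all genes. Without KO RA replicate 3 the counts were 19 higher and 2 lower, with all 10 genes among them, and 8.48% and 7.54% of all genes were called. The counts also depended on the KO NO libraries. Without KO NO replicate 1, 2 or 3, respectively, 3, 3 and 5 guidance genes were called higher and 0, 1 and 0 lower. Over all genes these fits called 194 of 17298, 210 of 17355 and 233 of 17316 in either direction, so the loss of calls was general. Epha7, Slit2 and Dcc were called in all 12 fits that left out 1 library. When library totals replaced TMM scaling, the median over all genes moved to −0.17 and Dcc was the only guidance gene called, beside 140 of all 16502 genes. All 10 genes kept their direction in every alternative run. The KO RA and KO NO libraries of all 10 genes were apart with TMM scaling and those of 8 without it, Epha4 and Robo2 being the exceptions because of KO RA replicate 3. DESeq2 on all 12 libraries called 16 guidance genes higher and 4 lower, beside 5.83% and 3.18% of all genes, and limma-voom with sample quality weights 21 and 4, beside 15.1% and 12.3%.

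In WT cells the same comparison by edgeR called 1 guidance gene, Dcc, higher and none lower, with 0.321% and 0.0848% of all genes called. Before adjustment, 8 were higher and 2 lower with p under 0.05, and the share of all genes at that cutoff was not counted. Without KO RA replicate 3, which is not part of this comparison but enters the shared estimate of spread, 7 rose (Dcc, Efnb2, Epha3, Epha4, Epha7, Robo2 and Slit2) and Epha1 fell, with 5.65% and 5.13% of all genes called, and DESeq2 on all 12 libraries called 5 higher and 1 lower beside 1.59% and 1.21% of all genes. Limma-voom called 11 and 4, beside 10.8% of all genes in each direction. Dcc was called in that 1 of the 12 fits leaving out a library, and in the others its adjusted p was 0.0585 to 0.165. The 10 genes called in KO cells all had the same sign in WT cells and a larger change in KO cells, where they were selected. Without that selection, 27 of the 36 tested guidance genes had the same sign in both lines and 23 of them a larger change in KO, against 10753 and 7108 of all 16502. Of the 904 genes called in KO cells over the whole table, 823 had the same sign in WT, and 780 had the same sign and a larger change in KO. The WT and KO changes share no library, and over the 36 guidance genes they had a Pearson r of 0.782 and a Spearman rho of 0.687, against 0.286 and 0.397 over all tested genes. These describe genes, which are not independent replicates.

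**Figure D2:**
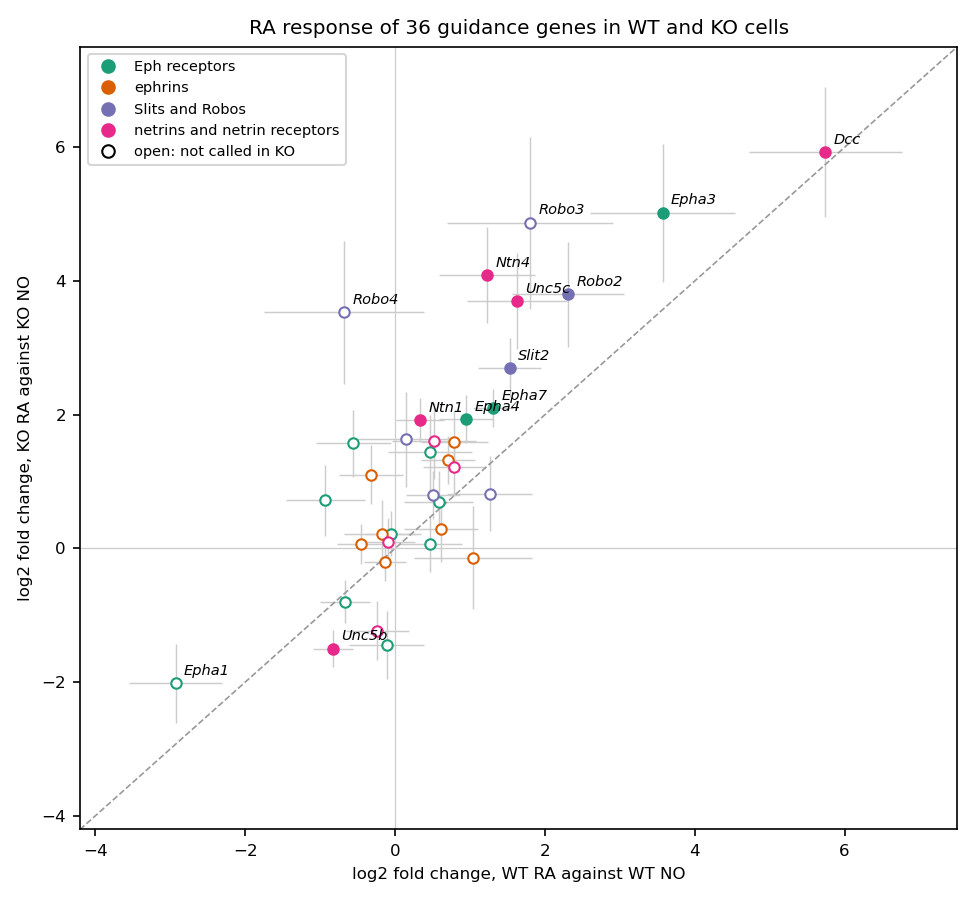
Each point is 1 of the 36 tested guidance genes, with its log2 fold change in RA against NO in WT cells (x axis) and in KO cells (y axis), bars of 1 standard error and a dashed line of equality. The 9 filled points that rose in KO cells, among them Dcc at 5.74 and 5.93, lie above the line, and Unc5b lies below 0 on both axes.

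Among the A-class Eph receptors, a group known for graded expression in topographic maps and in hindbrain segments, Epha3, Epha4 and Epha7 rose together in KO cells. Epha1 and Epha2 had negative log2 fold changes there (−2.02 and −0.80), as did Epha8, and none of them passed the test in edgeR with all 12 libraries. Epha7 (chromosome 4, 28813034 to 28967507 in GRCm39) was at 2.36, 2.77 and 4.15 CPM untreated and 6.82, 8.43 and 7.73 with RA in WT cells, and at 4.42, 4.91 and 4.19 and 24.8, 14.7 and 18.4 in KO cells. All 3 KO RA libraries were above every other library, and WT RA was above both untreated groups. Without TMM scaling KO RA replicate 3 was at 7.25 CPM, under WT RA replicate 2 at 8.57. The log2 fold change was 2.10 (SE 0.28, adjusted p = 0.0028 by edgeR) in KO cells and 1.31 (SE 0.27, adjusted p = 0.0758 by edgeR) in WT cells. Epha3 (chromosome 16, 63363897 to 63684538) was at 0.563, 0 and 0.0915 CPM untreated and 2.64, 3.05 and 2.2 with RA in WT cells, and at 0.0877, 0.0296 and 0.251 and 5.23, 3 and 4.26 in KO cells. Both treated groups were above both untreated groups, with a log2 fold change of 5.02 (SE 1.03, adjusted p = 0.0198 by edgeR) in KO cells and 3.57 (SE 0.97, adjusted p = 0.151 by edgeR) in WT cells. Epha4 (chromosome 1, 77343822 to 77492816), a receptor that also binds ephrin-B ligands, was at 4.75, 5.8 and 5.95 CPM untreated and 8.41, 12.8 and 10.6 with RA in WT cells, and at 4.8, 4.88 and 7 and 23.7, 29.7 and 10 in KO cells. KO RA replicate 3 lay within the WT RA range. Its log2 fold change was 1.93 (SE 0.36, adjusted p = 0.0135 by edgeR) in KO cells. Leaving out KO NO replicate 1 or 2 ended the Epha4 call (adjusted p 0.0697 and 0.0826), and leaving out any 1 of the 3 KO NO libraries ended that of Epha3 (0.0557 to 0.109).

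Epha1 was at 2.39, 2.84 and 12.4 CPM untreated and 0.625, 0.775 and 0.907 with RA in WT cells, and at 5.88, 7.43 and 4.32 and 1.94, 1.09 and 1.29 in KO cells. Every WT RA library was below every WT NO library, of which replicate 3 was far above the others, and the log2 fold change was −2.93 (SE 0.62, adjusted p = 0.076 by edgeR) in WT cells and −2.02 (SE 0.59, adjusted p = 0.0716 by edgeR) in KO cells. DESeq2 on all 12 libraries and limma-voom called Epha1 lower with RA in both lines. Epha2, an epithelial and early embryonic receptor, was at 20.3, 15.4 and 21.9 CPM untreated and 14.5, 11 and 10.6 with RA in WT cells, and at 40.4, 39.1 and 28.5 and 27.5, 23.7 and 10.6 in KO cells. KO NO was above WT NO without overlap, by 0.91 (SE 0.32, adjusted p = 0.266 by edgeR). Epha8 was at 3.54 to 7.15 CPM untreated and 4.63 to 6.49 with RA in WT cells, and at 4.94 to 5.76 and 0.396 to 2.75 in KO cells, where each RA library was below each untreated one. It was called lower in KO RA than in KO NO by DESeq2 on all 12 libraries, by limma-voom, and by edgeR without KO RA replicate 3. Epha5 was at 0.823 to 1.37 CPM untreated and 0.336 to 0.775 with RA in WT cells, and at 0.414 to 0.614 and 0.396 to 1.17 in KO cells. Epha6 did not exceed 0.361 CPM and Epha10, which lacks kinase activity, did not exceed 0.213 CPM in any library.

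A share within a library does not depend on its scaling, so the makeup of the A class was also read that way, with the groupings chosen after the values were seen. Epha3, Epha4 and Epha7 made up 19.7 to 24.9% of the summed EphA level in untreated WT cells and 46.6 to 55.6% with RA, and 15.0 to 22.6% and 61.3 to 71.9% in KO cells. Epha1 and Epha2 made up 53.1 to 69.8% and 27.1 to 39.5% in WT cells, and 64.9 to 74.9% and 26.1 to 33.6% in KO cells. KO RA replicate 3 had 71.9% for the first share and 26.1% for the second, so the change in makeup was present in that library as well.

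**Figure D3:**
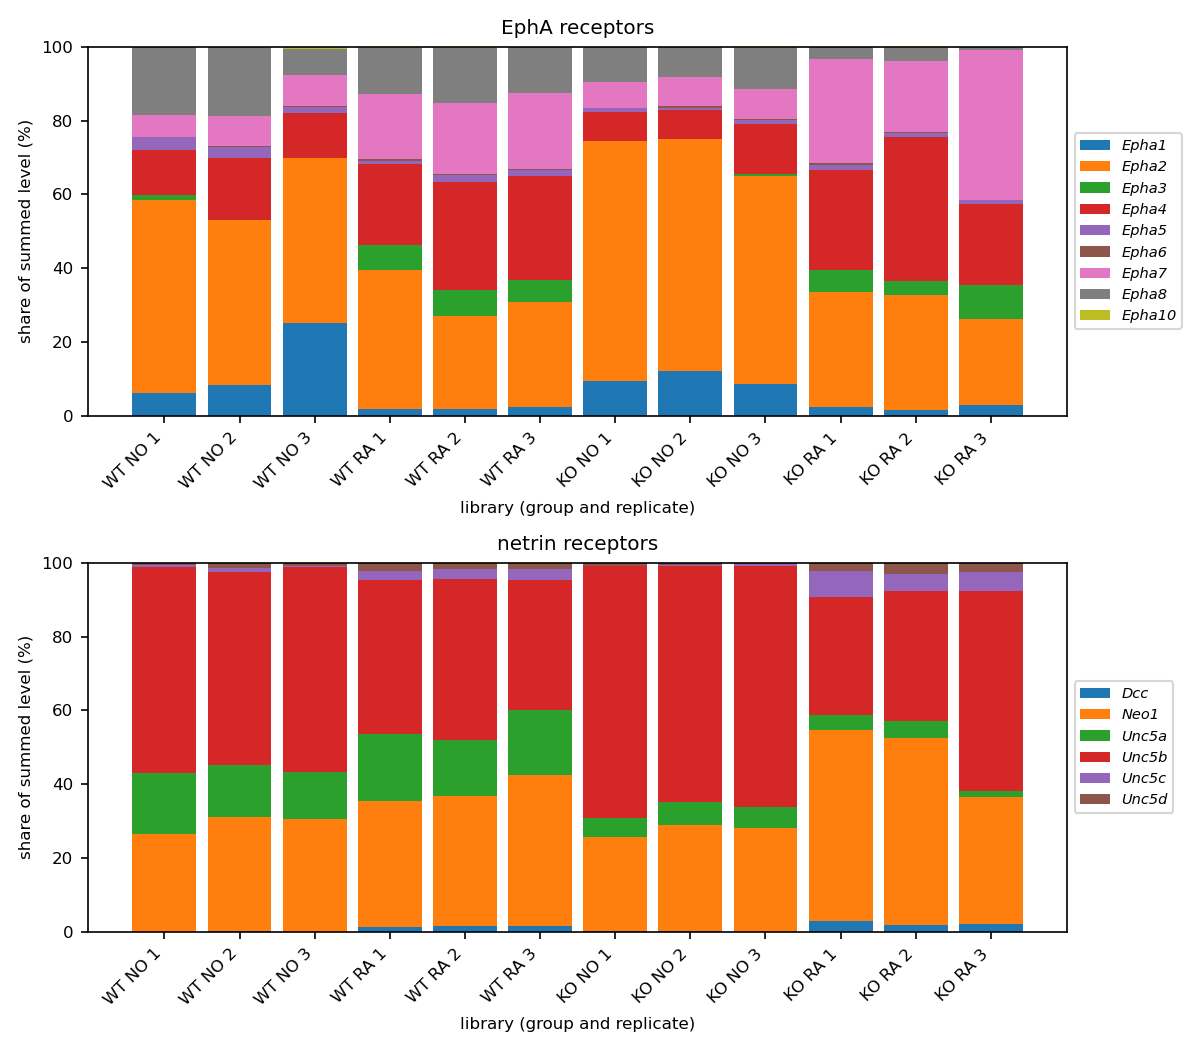
Stacked bars show each gene's share (%) of the summed level of the EphA receptors (top) and of the netrin receptors (bottom) in each of the 12 libraries. Epha3, Epha4 and Epha7 together fill 15.0 to 24.9% of the EphA bars in NO libraries and 46.6 to 71.9% in RA libraries, and the Unc5a part of the netrin receptor bars is narrower in every KO library than in every WT library.

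None of the 5 B-class Eph receptors was called in any comparison by edgeR with all 12 libraries. DESeq2 on the same libraries called Ephb1 higher in KO RA than in KO NO, and limma-voom called Ephb1, Ephb2 and Ephb3 there, Ephb4 higher in WT RA than in WT NO, Ephb1 and Ephb3 higher in KO RA than in WT RA, Ephb1 lower in untreated KO than in untreated WT cells, and its interaction. Ephb4, a receptor best known from the split between arteries and veins, was the most abundant, at 13.5 to 15.8 CPM untreated and 17 to 23.4 with RA in WT cells, and at 17.4 to 20.8 and 6.14 to 28.9 in KO cells. Ephb2 was at 6.19 to 10.9 CPM untreated and 8.96 to 16.8 with RA in WT cells, and at 6.04 to 7.09 and 3.17 to 14.3 in KO cells. Ephb3 was at 0.739 to 1.62 CPM untreated and 1.48 to 1.73 with RA in WT cells, and at 1.15 to 1.51 and 0.891 to 6.18 in KO cells. Both overlapped between KO NO and KO RA because KO RA replicate 3 was low, and without it Ephb1, Ephb2 and Ephb3 were called higher in KO RA than in KO NO (log2 fold changes 1.90, 1.10 and 1.86, edgeR adjusted p 0.0154, 0.0199 and 0.0107). Ephb1 was at 1.69, 1.26 and 3.08 CPM untreated and 1.1, 1.21 and 1.77 with RA in WT cells, and at 0.731, 0.622 and 0.977 and 2.66, 3.2 and 0.99 in KO cells. Its interaction, the change with retinoic acid in KO cells minus that in WT cells, was 2.13 (SE 0.71, adjusted p = 0.441 by edgeR). Ephb6, which lacks kinase activity, was at 1.59 to 3.41 CPM untreated and 2.29 to 2.83 with RA in WT cells, and at 2.4 to 3.32 and 2.67 to 4.29 in KO cells.

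Of the ligands of these receptors none was called by edgeR with all 12 libraries. DESeq2 called Efnb2 and Efnb3 higher in KO RA than in KO NO, and limma-voom called these with Efnb1 and Efna2. Limma-voom also called Efnb2 and Efnb3 higher and Efna5 lower in WT RA than in WT NO. Between the lines it called Efna2 and Efna5 lower in untreated KO than in untreated WT cells, Efna2 and Efnb2 higher in KO RA than in WT RA, and the interaction of Efna2. Efnb1 was at 81.5, 77.4 and 29.3 CPM untreated and 93.8, 108 and 84.6 with RA in WT cells, and at 80.8, 89.4 and 96.4 and 128, 162 and 36.1 in KO cells, with WT NO replicate 3 and KO RA replicate 3 below all other libraries. Efnb2, the main partner of Ephb4, was at 23.4, 35.2 and 33.3 CPM untreated and 48.9, 59.4 and 40.9 with RA in WT cells, and at 23.2, 24.7 and 32.9 and 79.5, 90.7 and 30.8 in KO cells. WT RA was above WT NO in every library with TMM scaling but not without it, and KO RA replicate 3 fell within the KO NO range. The log2 fold change was 1.32 (SE 0.36, adjusted p = 0.0593 by edgeR) in KO cells, and 1.65 (adjusted p 0.00116) without KO RA replicate 3. Efnb3 was at 1.51 to 3.35 CPM untreated and 3.53 to 4.26 with RA in WT cells, and at 1.14 to 1.53 and 1.58 to 5.34 in KO cells. Its log2 fold change in KO cells was 1.59 (SE 0.46, adjusted p = 0.0682 by edgeR), and 1.95 (adjusted p 0.00401) without that library.

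Ephrin-A ligands are held to the membrane by a lipid anchor. Efna2 was at 10.3, 9.31 and 14 CPM untreated and 9.32, 8.63 and 8.93 with RA in WT cells, and at 5.53, 6.6 and 6.47 and 19, 16.5 and 3.96 in KO cells. Without KO RA replicate 3 it was lower in untreated KO than in untreated WT cells and higher in KO RA than in WT RA (log2 fold changes −0.85 and 0.98, edgeR adjusted p 0.0162 and 0.0126), and it was the only guidance gene with a called interaction in that fit (1.83, adjusted p 0.0173), where 0.802% of all genes had a higher and 0.537% a lower one. With all 12 libraries the interaction was 1.42 (SE 0.61, adjusted p = 0.557 by edgeR). Efna5 was at 10.7 to 20.6 CPM untreated and 10.1 to 15.4 with RA in WT cells, and at 9.86 to 13.9 and 9.11 to 14.5 in KO cells, and Efna4 was at 8.53 to 9.33 CPM untreated and 7.03 to 9.64 with RA in WT cells, and at 8.35 to 9.56 and 4.26 to 9.84 in KO cells. Efna3 was at 4.1 to 6.72 CPM untreated and 3.49 to 6.87 with RA in WT cells, and at 3.51 to 5.3 and 1.29 to 7.83 in KO cells. Efna1 was at 0.427 to 1.02 CPM untreated and 0.678 to 2.02 with RA in WT cells, and at 1.14 to 2.13 and 0.099 to 2.48 in KO cells. The last 4 differed by less than the spread between libraries in the KO comparison, with log2 fold changes of 0.07, −0.21, 0.22 and −0.14, and each turned in sign in at least 1 alternative.

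**Figure D4:**
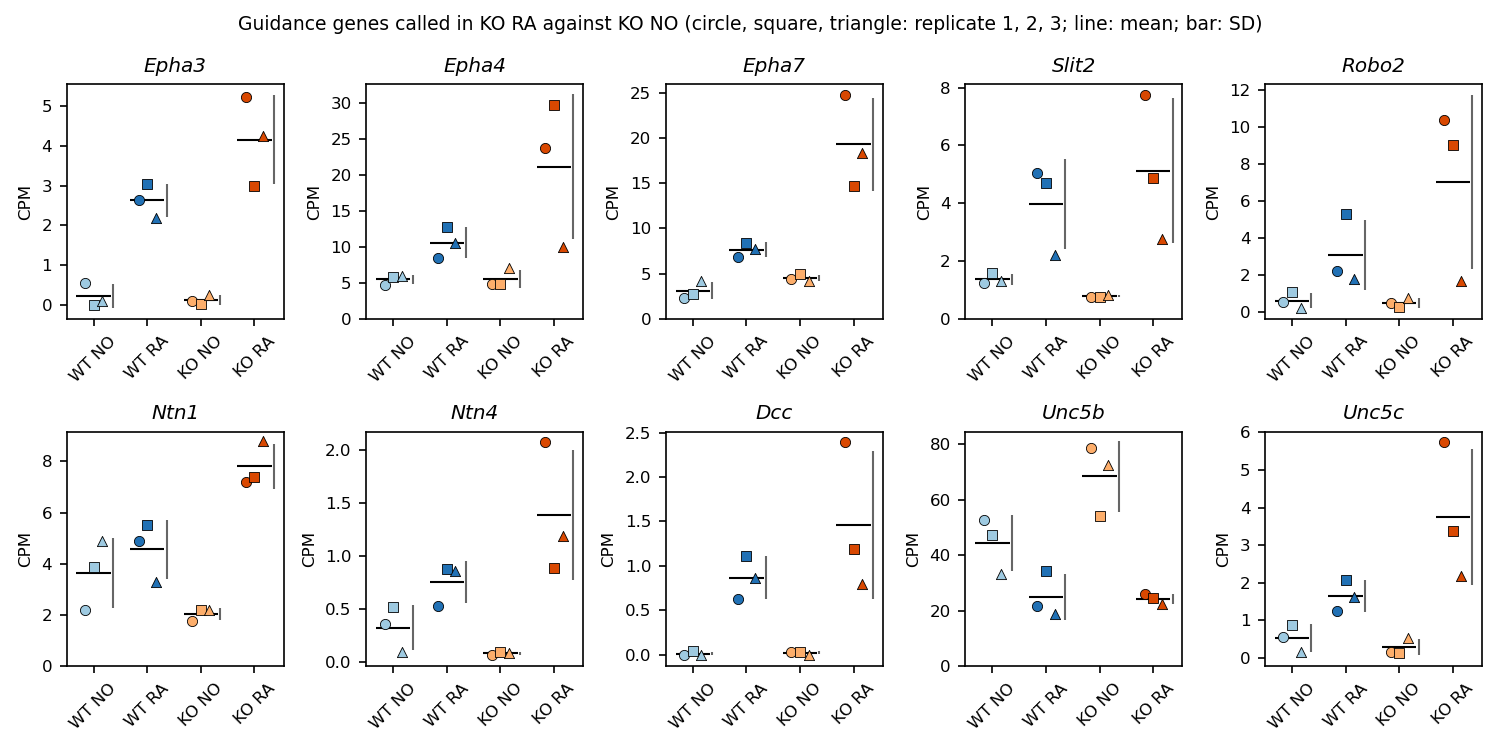
Levels (CPM, linear axes) of the 10 guidance genes called in KO RA against KO NO, with circle, square and triangle for replicates 1, 2 and 3, a line for the group mean and a bar for 1 SD. For the 9 genes that rose, each KO RA library lies above each KO NO library, and for Unc5b each lies below.

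In the Slit-Robo system both a ligand and a receptor rose. Slit2 (chromosome 5, 48140480 to 48465075), the repellent best known at the ventral midline, was at 1.23, 1.59 and 1.31 CPM untreated and 5.04, 4.7 and 2.2 with RA in WT cells, and at 0.76, 0.77 and 0.837 and 7.76, 4.87 and 2.77 in KO cells. The 3 KO NO libraries lay close together and below all RA libraries. Its log2 fold change was 2.70 (SE 0.44, adjusted p = 0.00712 by edgeR) in KO cells and 1.53 (SE 0.42, adjusted p = 0.161 by edgeR) in WT cells. Robo2 (chromosome 16, 73688727 to 75244270) was at 0.563, 1.07 and 0.244 CPM untreated and 2.21, 5.28 and 1.81 with RA in WT cells, and at 0.468, 0.266 and 0.781 and 10.4, 9.05 and 1.68 in KO cells. KO RA replicate 3 was the lowest of its group and above every untreated library only with TMM scaling. Without it that library was at 0.662 CPM, under WT NO replicate 2 at 1.15 and KO NO replicate 3 at 0.937. The log2 fold change was 3.80 (SE 0.79, adjusted p = 0.0205 by edgeR) in KO cells and 2.31 (SE 0.75, adjusted p = 0.235 by edgeR) in WT cells. Without 1 of KO NO replicates 1, 2 and 3 the Robo2 call was lost (adjusted p 0.104, 0.105 and 0.0637).

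Slit1 was scarce, at 0.528, 0.222 and 0.549 CPM untreated and 0.48, 0.581 and 0.382 with RA in WT cells, and at 0.205, 0.0592 and 0.0558 and 0.406, 0.306 and 0.297 in KO cells. With TMM scaling every KO NO library was below every WT NO library, by −1.98 (SE 0.70, adjusted p = 0.257 by edgeR). Without it KO NO replicate 1 and WT NO replicate 2, which held 7 and 6 counts, were both at 0.238 CPM. Slit3 was at 0.598 to 1.19 CPM untreated and 1.34 to 2.96 with RA in WT cells, and at 1.06 to 2.13 and 1.09 to 4.82 in KO cells. Robo1, the most abundant Robo on average in each group, was at 3.99 to 8.2 CPM untreated and 7.4 to 8.16 with RA in WT cells, and at 4.03 to 6.11 and 4.85 to 11.2 in KO cells. Robo3, the receptor that lets commissural axons cross the midline, was at 0.0704, 0.85 and 0.061 CPM untreated and 0.48, 0.921 and 2.01 with RA in WT cells, and at 0.0585, 0.0592 and 0.0558 and 4.42, 0.511 and 0.495 in KO cells, so that 1 KO RA library was far above the other 2. The summed counts were 118 in KO RA and 6 in KO NO, a ratio of 33.1 after scaling, with 98 of the 118 in replicate 1, and the fitted change was 4.87 (SE 1.29, adjusted p = 0.0526 by edgeR). Robo4, known mainly from endothelium, was at 0.106, 0.0369 and 0.396 CPM untreated and 0.048, 0.145 and 0.143 with RA in WT cells, and at 0.0585, 0.0888 and 0.112 and 2.07, 0.919 and 0.099 in KO cells. KO RA replicates 1 and 2 were above all other libraries and replicate 3 was not. With 74 summed counts in KO RA and 7 in WT RA the ratio was 10.7, and the fitted change was 3.18 (SE 1.08, adjusted p = 0.184 by edgeR). Summed endothelial markers were 5.63 to 8.87 CPM in WT RA and 16.6 to 30.0 CPM in KO RA, and their part in the Robo4 level was not tested.

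The netrin system showed rises of ligands and of receptors in KO cells. Ntn1 (chromosome 11, 68100190 to 68291662), the attractant of commissural axons, was at 2.18, 3.88 and 4.88 CPM untreated and 4.9, 5.52 and 3.29 with RA in WT cells, and at 1.78, 2.19 and 2.18 and 7.21, 7.39 and 8.81 in KO cells. All KO RA libraries were above every other library with TMM scaling. Without it KO RA replicate 3 was at 3.47 CPM, above KO NO but under 2 of the WT NO and 2 of the WT RA libraries. The log2 fold change was 1.92 (SE 0.33, adjusted p = 0.00924 by edgeR) in KO cells and 0.33 (SE 0.32, adjusted p = 0.765 by edgeR) in WT cells, and the interaction was 1.60 (SE 0.46, adjusted p = 0.382 by edgeR). Ntn4 (chromosome 10, 93476543 to 93583069), a netrin of basement membranes, was at 0.352, 0.517 and 0.0915 CPM untreated and 0.528, 0.872 and 0.859 with RA in WT cells, and at 0.0585, 0.0888 and 0.0837 and 2.07, 0.885 and 1.19 in KO cells. KO NO lay below WT NO without overlap, by −1.98 (SE 0.70, adjusted p = 0.253 by edgeR), and below KO RA. WT NO replicate 3 and KO NO replicates 2 and 3 each held 3 counts, so at the floor their counts did not separate them. The KO RA and KO NO counts summed to 84 and 8, a ratio of 17.7, with a fitted change of 4.09 (SE 0.72, adjusted p = 0.0101 by edgeR) and an interaction of 2.85 (SE 0.93, adjusted p = 0.432 by edgeR). Leaving out any 1 KO NO library put the KO calls of both netrins just past the threshold (adjusted p 0.0503 to 0.0598 for Ntn1 and 0.0564 to 0.0638 for Ntn4). Ntn3 was at 1.4 to 3.17 CPM untreated and 3.36 to 4.2 with RA in WT cells, and at 0.858 to 1.37 and 1.19 to 3.29 in KO cells. Ntn5 had 0 counts in 10 of the 12 libraries.

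Dcc (chromosome 18), the receptor through which netrin-1 attracts, was near 0 in untreated cells and present after retinoic acid in both lines. It was at 0, 0.0369 and 0 CPM untreated and 0.625, 1.11 and 0.859 with RA in WT cells, and at 0.0292, 0.0296 and 0 and 2.39, 1.19 and 0.792 in KO cells. The summed counts were 1 untreated and 54 with RA in WT cells, and 2 and 96 in KO cells. These gave ratios of 76.1 in WT cells (exact 95% interval 13.1 to 3060) and 80.7 in KO cells (21.7 to 676). The intervals treat the rescaled counts as reads, so they are approximate and leave out the spread between libraries. The fitted changes, which depend on the prior count at such levels, were 5.74 (SE 1.02, adjusted p = 0.0418 by edgeR) and 5.93 (SE 0.97, adjusted p = 0.00718 by edgeR). Neo1, the DCC relative that also binds repulsive guidance molecules, was abundant in all groups, at 18.3 to 28 CPM untreated and 17.6 to 27.6 with RA in WT cells, and at 24.3 to 31.1 and 14.2 to 41.6 in KO cells.

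The UNC5 receptors moved in different directions. Unc5b (chromosome 10, 60598372 to 60667396), the most abundant of them, was at 52.6, 47.2 and 33.2 CPM untreated and 21.6, 34.2 and 18.8 with RA in WT cells, and at 78.7, 54 and 72.4 and 25.8, 24.4 and 22.3 in KO cells. KO RA was below KO NO in every library and WT RA overlapped WT NO only between the highest treated and the lowest untreated library. Its log2 fold change was −1.50 (SE 0.28, adjusted p = 0.0122 by edgeR) in KO cells and −0.83 (SE 0.27, adjusted p = 0.234 by edgeR) in WT cells, and the KO call was lost without KO NO replicate 1 or 3 (adjusted p 0.0626 and 0.0563). Unc5c (chromosome 3, 141170977 to 141540685) was at 0.563, 0.887 and 0.152 CPM untreated and 1.25, 2.08 and 1.62 with RA in WT cells, and at 0.175, 0.148 and 0.53 and 5.73, 3.37 and 2.18 in KO cells. Each KO RA library was above each library of the other groups with TMM scaling. Without it KO RA replicate 3 was at 0.857 CPM, above KO NO but under every WT RA library and WT NO replicate 2. It changed by 3.70 (SE 0.72, adjusted p = 0.0152 by edgeR) in KO cells, without the call when KO NO replicate 1 or 2 was left out (adjusted p 0.0845 and 0.0843). Unc5d was at 0.427 to 1.33 CPM untreated and 0.907 to 1.26 with RA in WT cells, and at 0.279 to 0.76 and 0.99 to 2.01 in KO cells.

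Unc5a differed between the lines. It lies on chromosome 13 (55096518 to 55153833), as does the edited gene, Faf2 (54769596 to 54813238). A local effect of the edit on Unc5a cannot be told apart here and was not tested. Unc5a was at 15.7, 12.7 and 7.65 CPM untreated and 9.42, 11.8 and 9.41 with RA in WT cells, and at 5.76, 5.18 and 6.05 and 3.16, 3.17 and 0.693 in KO cells. All 6 KO libraries were below all 6 WT libraries. KO RA was below WT RA by −2.08 (SE 0.45, adjusted p = 0.0521 by edgeR) and KO NO below WT NO by −1.08 (SE 0.43, adjusted p = 0.321 by edgeR), neither past the threshold. It was called lower in KO than in WT both after retinoic acid (−1.70, adjusted p 0.00687) and untreated (−1.07, adjusted p 0.0215) when KO RA replicate 3 was left out. As a share of the summed netrin receptors, read after the values were seen, Unc5a took 12.8 to 18.2% in the 6 WT libraries and 1.69 to 6.16% in the 6 KO libraries. Dcc, Unc5c and Unc5d together took 0.97 to 2.5% untreated and 5.71 to 6.36% with RA in WT cells, and 0.733 to 0.839% and 9.48 to 12.2% in KO cells.

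The second question was whether loss of Faf2 changed guidance genes. Between KO RA and WT RA, edgeR called Epha7 higher and no guidance gene lower, where 0.885% and 0.358% of all genes were called. DESeq2 on all 12 libraries called Epha4 and Epha7 higher and Unc5a lower, beside 2.84% and 1.53% of all genes, and limma-voom 13 higher and 2 lower, Unc5a and Epha8, beside 9.79% and 8.31%. The Epha7 change was 1.33 (SE 0.27, adjusted p = 0.0417 by edgeR). It lost the call in 8 of the 12 fits without 1 library (adjusted p 0.0637 to 0.21), among them those without any 1 of the WT RA or KO NO libraries, WT NO replicate 2 or KO RA replicate 1. Without KO RA replicate 3, 8 guidance genes rose (Efna2, Efnb2, Epha2, Epha4, Epha7, Ephb3, Neo1 and Robo4) and Unc5a fell, beside 4.42% and 5.44% of all genes. Between KO NO and WT NO none of the 36 was called by edgeR or by DESeq2 on all 12 libraries, with 0.788% of all genes called higher and 0.351% lower (1.62% and 1.55% by DESeq2). In edgeR before adjustment 2 were higher and 6 lower with p under 0.05, and the share of all genes at that cutoff was not counted. Limma-voom called 2 higher and 6 lower, beside 10.9% and 10.8% of all genes. Without KO RA replicate 3, Epha2 rose and Efna2 and Unc5a fell, with 4.43% and 4.35% of all genes called. The interaction was called for none of the 16502 genes (0.0%) by edgeR. There 7 guidance genes were higher and 0 lower before adjustment with p under 0.05, and the share of all genes at that cutoff was not counted. DESeq2 on all 12 libraries called the interaction for none of the guidance genes and for 0.618% and 0.266% of all genes. Limma-voom with sample quality weights, also on all 12 libraries, called 4 guidance genes with a higher interaction (Efna2, Epha4, Epha5 and Ephb1) and none with a lower one, beside 3.56% and 2.41% of all genes, so whether any guidance gene passed this test depended on the tool.

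The sequence upstream of the start sites was compared for what else the 10 responders share. In windows of 300 bases before the annotated start (GRCm39, GENCODE), the 39 guidance genes had a median GC content of 60.0% against 52.3% over 21770 protein-coding genes. CpG-rich windows, with at least 55% GC and an observed-to-expected CpG ratio of at least 0.65, were 16 of 39 (41.0%) against 23.4%. Of the 10 responders 6 had such windows (Epha3, Epha7, Slit2, Ntn4, Unc5b and Unc5c) and Epha4, Robo2, Ntn1 and Dcc did not. Those of Epha7 and Slit2, called in every fit that left out 1 library, and of Unc5b, which fell, are given as examples of the CpG-rich kind. They are shown 5′ to 3′ along the gene with each CG in capitals. The Epha7 window, chr4:28812734-28813033 (+), holds 24 CG, the Slit2 window, chr5:48140180-48140479 (+), 26, and the Unc5b window, chr10:60667397-60667696 (−), 23. The first and the last each overlap 1 annotated exon.
Epha7: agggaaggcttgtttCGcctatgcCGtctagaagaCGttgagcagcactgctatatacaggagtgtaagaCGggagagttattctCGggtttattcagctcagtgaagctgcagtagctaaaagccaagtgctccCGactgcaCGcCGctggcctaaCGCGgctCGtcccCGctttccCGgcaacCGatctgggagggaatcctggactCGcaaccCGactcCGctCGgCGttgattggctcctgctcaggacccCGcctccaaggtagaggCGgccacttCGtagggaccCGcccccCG
Slit2: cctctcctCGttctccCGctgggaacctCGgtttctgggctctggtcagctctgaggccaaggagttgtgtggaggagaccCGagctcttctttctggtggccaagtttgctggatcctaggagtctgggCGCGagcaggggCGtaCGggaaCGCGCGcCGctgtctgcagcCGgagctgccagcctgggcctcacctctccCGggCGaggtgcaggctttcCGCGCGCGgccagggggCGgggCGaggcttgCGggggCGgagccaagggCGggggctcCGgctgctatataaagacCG
Unc5b: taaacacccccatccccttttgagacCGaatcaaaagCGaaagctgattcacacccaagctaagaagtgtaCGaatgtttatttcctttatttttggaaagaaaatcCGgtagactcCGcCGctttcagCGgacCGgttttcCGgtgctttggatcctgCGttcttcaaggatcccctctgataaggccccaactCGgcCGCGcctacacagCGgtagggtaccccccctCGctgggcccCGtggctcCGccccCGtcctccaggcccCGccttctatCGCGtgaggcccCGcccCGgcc

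Retinoic acid receptors bind DNA at paired half-sites, so the half-sites AGGTCA and AGTTCA were searched on both strands of the same windows. AGGTCA was found in 7 of the 39 windows and in 15.9% of all 21770, and AGTTCA in 8 of the 39 and in 14.9% of all. Of the 10 responders in KO cells only Ntn4, with AGGTCA at 111 to 116 and 212 to 217 bases before the start, and Ntn1, with AGTTCA at 258 to 263 bases before it, held either. Both of these windows lie in part or wholly within the span of the gene, downstream of another annotated start. No guidance gene window held direct repeats of these half-sites spaced by 1, 2 or 5 bases, which were in 0.0919, 0.0643 and 0.0184% of all windows. A match is a string of letters in this window and no evidence of binding. Other forms of the half-site and sites farther away were not searched.

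The downstream genes were taken as 55 effectors and cofactors of the same pathways, all of which were tested. In KO cells 5 rose and 1 fell with retinoic acid (edgeR), beside 3.89% and 1.59% of all genes, and the median log2 fold change was 0.03 against 0.11 over all genes. The 4 with the smallest p were Flrt2, an UNC5 ligand, at 3.49 (SE 0.38, adjusted p = 0.000876 by edgeR), Flrt3, which also binds UNC5B and ROBO1, at 1.64, Rgmb, a neogenin ligand, at 1.83, and Trim67, a DCC-binding ubiquitin ligase, at −2.66. The other 2, named after their values were seen, were Rgma (2.50), also a neogenin ligand, and Trim9 (5.15), a relative of Trim67. Flrt2 was at 1.06, 0.739 and 0.457 CPM untreated and 3.84, 4.55 and 2.72 with RA in WT cells, and at 1.43, 0.858 and 1.06 and 15.2, 9.8 and 12.9 in KO cells, and each RA library was above each NO library. It also rose in WT cells, by 2.30 (SE 0.37, adjusted p = 0.0347 by edgeR), and was higher in KO RA than in WT RA, by 1.76 (SE 0.35, adjusted p = 0.0389 by edgeR). Of the 12 fits that left out 1 library, 1 kept the WT call (adjusted p 0.0519 to 0.124 in the others) and 4 the call between KO RA and WT RA (0.0625 to 0.188 in the others). Rgs3, which has a form that binds ephrin-B tails, was higher in KO RA than in WT RA as well, by 2.02 (SE 0.40, adjusted p = 0.0376 by edgeR), a call kept in 5 of these 12 fits (0.0577 to 0.194 in the others). Without KO RA replicate 3, 14 rose and 1 fell in KO cells, beside 8.48% and 7.54% of all genes. Without any 1 KO NO library 1 rose, where 194 to 233 of all genes were called in either direction. No effector was called between KO NO and WT NO by edgeR. Before adjustment 2 were higher and 6 lower there with p under 0.05, and the share of all genes at that cutoff was not counted. DESeq2 called 1 and 3 effectors in that comparison, and edgeR called no interaction.

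Marker genes of other cell types moved with retinoic acid as well. In these bulk libraries more cells of a type and more RNA per cell cannot be told apart. Of 11 progenitor markers 5 rose in KO cells, and the summed level of the 11 was 426 to 482 CPM in KO NO and 884 to 1020 CPM in KO RA. Vim made up much of this, at 102 to 151 and 434 to 639 CPM, while Otx2 went the other way, at 132 to 162 and 19.4 to 104 CPM. Of 15 neuron markers 14 were tested and 4 rose, with sums of 175 to 195 and 220 to 306 CPM. Stmn2 led both sums, at 41.6 to 60.2 and 62.2 to 164 CPM. Some neuron markers went the other way, among them Nefl at 31.7 to 48.8 and 8.68 to 16.8 CPM and Ina at 29.5 to 38.4 and 6.54 to 21.6 CPM. Of 12 mesenchymal markers 7 rose, with sums of 52.7 to 54.3 and 222 to 1150 CPM, the highest in KO RA replicate 3. Of 13 endothelial markers 7 were tested and 3 rose, with sums of 6.75 to 11.5 and 16.6 to 30.0 CPM. In WT cells no progenitor, neuron or endothelial marker was called and 3 mesenchymal markers rose, from a sum of 52.3 to 104 CPM to one of 116 to 282 CPM. Of 8 oligodendrocyte-lineage markers 4 were tested and Mbp rose in KO cells, with sums of 3.21 to 3.51 and 3.07 to 24.4 CPM, the lowest in KO RA replicate 3, while Olig2 and Mog were at the floor in all libraries. Of 8 astroglial markers 5 were tested and none was called, with sums of 180 to 283 and 101 to 264 CPM made up mostly of Gja1, and Aqp4 and S100b were at the floor in all libraries. The part of these markers in the guidance gene results was not tested.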

How the data were processed

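mRNA of 12 NE-4C libraries was sequenced, and the authors deposited 1 table of estimated counts per gene, made with the default nf-core/rnaseq pipeline (STAR alignment, Salmon quantification) on GRCm39. From its name and values, the table was taken as counts scaled from TPM, which no source states. On that reading a count is not a fragment. Values were rounded to whole numbers. The submitters' processing notes also name DESeq2.

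Of 57010 genes, 16502 passed edgeR's default filter (minimum count 10). All 12 libraries were fitted together in edgeR 4.0.16 (R 4.3.3) with TMM scaling and robust quasi-likelihood tests, with Benjamini-Hochberg adjustment over all tested genes and calls at an adjusted p under 0.05. P-values measure the spread between passages. The fitting code was tested on simulated data. Alternatives were DESeq2 1.42.0 and limma 3.58.1 (voom), other filters and scalings, a replicate block, and leaving out each library. Upstream windows were read from GRCm39 with pysam 0.24.0.

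The members and lists were chosen with earlier results of these data known. All 39 genes are named. Library values and tests are given for each gene called in a comparison and the 3 with the smallest p in it, and up to 4 called effectors each. Marker lists are given as counts and sums. Pou5f1 and the other single markers with levels, the makeup of receptor classes and the values without KO RA replicate 3 were chosen after values were seen.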

Additional observations from a re-analysis of the deposited data

How the results depend on the processing

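Calls are given as higher and lower in 5 comparisons, in the order KO against WT untreated, KO against WT with RA, RA against NO in WT cells, RA against NO in KO cells, and the interaction. Beside them stand the genes called in either direction over the whole table, in the same order. With edgeR on all 12 libraries they were 0 and 0, 1 and 0, 1 and 0, 9 and 1, 0 and 0 guidance genes and 0 and 0, 2 and 0, 1 and 0, 5 and 1, 0 and 0 effectors, beside 188, 205, 67, 904 and 0 of 16502 genes. DESeq2 on all 12 libraries gave 0 and 0, 2 and 1, 5 and 1, 16 and 4, 0 and 0 guidance genes and 1 and 3, 6 and 1, 4 and 1, 11 and 1, 0 and 1 effectors, beside 884, 1217, 779, 2506 and 246 of 27819 genes. DESeq2 on the groups compared gave 1 and 2, 1 and 1, 7 and 2, 13 and 2 guidance genes and 3 and 8, 2 and 0, 4 and 1, 7 and 2 effectors (no value for the interaction), beside 1850 of 25834, 654 of 25683, 1698 of 25794 and 1454 of 25871 genes. DESeq2 size factors in edgeR gave 0 and 0, 1 and 1, 1 and 0, 12 and 1, 0 and 0 guidance genes and 0 and 0, 2 and 0, 1 and 0, 6 and 1, 0 and 0 effectors, beside 202, 249, 65, 1115 and 0 of 16502 genes. A filter of 1 count in any library gave 0 and 0, 0 and 0, 0 and 0, 9 and 1, 0 and 0 guidance genes and 0 and 0, 1 and 0, 1 and 0, 5 and 1, 0 and 0 effectors, beside 160, 143, 43, 583 and 0 of 28864 genes. A filter of 10 counts in every library gave 0 and 0, 0 and 0, 0 and 0, 6 and 1, 0 and 0 guidance genes and 0 and 0, 2 and 0, 1 and 0, 6 and 0, 0 and 0 effectors, beside 43, 80, 36, 661 and 0 of 11576 genes. EdgeR on the groups compared gave 1 and 0, 0 and 0, 2 and 0, 4 and 0 guidance genes and 2 and 3, 0 and 0, 3 and 1, 1 and 0 effectors (no value for the interaction), beside 718 of 15254, 16 of 14865, 545 of 14705 and 196 of 15307 genes. Limma-voom with quality weights gave 2 and 6, 13 and 2, 11 and 4, 21 and 4, 4 and 0 guidance genes and 4 and 12, 13 and 1, 7 and 5, 22 and 2, 7 and 1 effectors, beside 3566, 2987, 3562, 4531 and 985 of 16502 genes. The replicate block gave 0 and 0, 0 and 0, 0 and 0, 7 and 1, 0 and 0 guidance genes and 0 and 0, 0 and 0, 0 and 0, 4 and 1, 0 and 0 effectors, beside 56, 59, 10, 467 and 0 of 16502 genes. Library totals without TMM gave 0 and 0, 0 and 0, 0 and 0, 1 and 0, 0 and 0 guidance genes and 0 and 0, 0 and 0, 0 and 0, 1 and 0, 0 and 0 effectors, beside 112, 89, 0, 140 and 0 of 16502 genes. DESeq2 without KO RA replicate 3 gave 1 and 4, 8 and 2, 8 and 3, 21 and 4, 6 and 0 guidance genes and 3 and 9, 12 and 1, 5 and 3, 17 and 1, 6 and 1 effectors, beside 2492, 2677, 2882, 3652 and 1242 of 28031 genes. The replicate block without KO RA replicate 3 gave 1 and 2, 6 and 1, 4 and 1, 18 and 2, 1 and 0 guidance genes and 3 and 3, 5 and 1, 4 and 1, 11 and 1, 0 and 0 effectors, beside 896, 1042, 1084, 2024 and 41 of 17327 genes. Leaving out 1 library at a time gave higher and lower ranges of 0 to 1 and 0 to 2, 0 to 8 and 0 to 1, 0 to 7 and 0 to 1, 3 to 19 and 0 to 2, 0 to 1 and 0 to 0 guidance genes, and of 0 to 3 and 0 to 8, 0 to 9 and 0 to 1, 0 to 5 and 0 to 2, 1 to 14 and 0 to 1, 0 to 2 and 0 to 1 effectors. Over the whole table these fits called 40 to 1521, 19 to 1707, 0 to 1868, 194 to 2776 and 0 to 232 genes, with the most in each comparison without KO RA replicate 3. The cause of these shifts was not tested. Library totals without TMM, DESeq2 without KO RA replicate 3 and the replicate block without it were chosen after seeing the data.

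The replicate numbers did not pair the libraries, since deviations of same-numbered libraries correlated at −0.167 to 0.038, so the block stands here only. Of single genes, the interaction reversed for Dcc without WT NO replicate 2 (−1.59), WT RA replicate 1 (−0.00), KO NO replicate 3 (−0.31) or KO RA replicate 1 (−0.33), and for Epha3 without WT NO replicate 1 (−0.58), none of them past the threshold, and over all libraries left out it ran from −1.59 to 0.68 for Dcc and −0.58 to 2.48 for Epha3. Of the other values, 812 log2 fold changes of single genes kept their direction and side of the threshold, 111 kept the direction and lost the call, and 61 gained one. Of single-gene levels, 294 stayed within 1 SD and 18 moved by more.

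Depth limited Dcc, Epha3, Robo3, Robo4, Ntn4 and Slit1, whose untreated groups held few counts. Exons of 22 guidance genes overlap an exon on the opposite strand, and 4 of the called genes (Epha4, Ntn1, Ntn4 and Unc5c) are among them. Whether counting used strand is not given in the sources used here, so reads of such pairs may not be separated. Robo2 and Ntn3 also overlap an exon of another gene on their own strand, which counting by strand would not separate.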
